A study of Caenorhabditis elegans with 2 samples.

Results

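The translation initiation and elongation factor genes of Caenorhabditis elegans are described here in 2 RNA libraries of whole L4 (fourth-stage) larvae grown at 25 °C. The mutant animals were of strain VC2324, with a mutation in flp-6, and the wild type animals were of strain N2. The gene flp-6 encodes FMRFamide-like neuropeptides, and what its mutation removes is not stated in the labels. Total RNA of each strain gave 1 library, so every difference below is one between 2 libraries, with no replicate and no test. The members were taken by gene name from the authors' table of 46233 genes: every name that starts with eif, eef, eft, ife, iff, ifg, ifet or inf and a hyphen. There were 29, of which 23 were initiation factors or eIF5A genes and 6 were elongation factors. Of these, 28 had a mean over both libraries of at least 1 FPKM and are called measured below, and the elongation factor eef-1A.1 was listed at 0.0001, the table's stand-in for 0, in both. FPKM counts fragments per length of transcript and per size of library, and levels of different genes are set beside each other on that basis. The differences between the libraries still varied with transcript length, as given below, which limits comparisons of genes of unlike length.

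Translation starts when initiation factors bring the small ribosomal subunit, the initiator tRNA and a capped mRNA together and scan to a start codon. The eIF4E proteins bind the cap, eIF4G links them to the ribosome through eIF3, and eIF4A unwinds the leader of the mRNA. After the subunits join, eEF1A delivers each aminoacyl-tRNA, eEF1B recharges eEF1A, eEF2 moves the ribosome along and eIF5A helps it past stretches that stall it. In worms some of these proteins come as families, with copies used mainly in the germ line and others mainly in the soma, and whole larvae hold both.

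The targeted gene flp-6 had 4.40 FPKM in the mutant library and 57.95 FPKM in the N2 library. All FPKM values of the table summed to 989473 in the mutant library and 1414572 in the N2 library. The 29 members took 1.34% of that sum in the mutant library and 1.46% in the N2 library. Without iff-1, the most abundant member in N2, their share was 1.14% in the mutant library and 0.991% in the N2 library. Depth per library is unknown, since the low values showed no steps of single reads.

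Most translation factor genes were listed at a lower FPKM in the mutant library, with 5 of 28 measured members at least 2-fold lower and 0 higher to that degree. Differences are log2((mutant FPKM + 1)/(N2 FPKM + 1)), so a negative one means lower in the mutant. The 5 were iff-1, eif-3.K, ife-1, eif-3.F and eif-1. Of all 13436 genes measured by the same minimum, 11.3% were 2-fold lower or more and 10.5% were 2-fold higher or more. Of the 3491 genes with a mean of 50 FPKM or more, 21% were past 2-fold on the low side and 2.52% on the high side. Of the 26 members that abundant, 5 (19.2%) were past it on the low side and 0 on the high side. The members' count thus lay near the share of genes of like abundance. Their median difference was -0.37, beside -0.10 for all measured genes. Among genes of at least 50 FPKM the median was -0.27 for the members and -0.46 for all, so that which of the medians was lower depended on that minimum.

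In all, 23 of 28 measured members lay below 0, as did 55.7% of all measured genes. Of the 26 members with a mean of 50 FPKM or more 21 lay below 0, as did 73.4% of all genes that abundant. At a 1.5-fold difference 11 members were lower and 2 higher, beside 26.3% and 19.4% of all measured genes. The 2 higher ones were ifg-1 and eef-1A.2. The scale between the libraries bears on each of these counts. With each library scaled to an equal sum of FPKM, the median of all genes moved by 0.45, and 1 member was 2-fold lower and 3 (ifg-1, eef-1A.2 and ifet-1) were 2-fold higher or more. On that scale 12 of the 28 members lay below 0 and 16 above, at a median of 0.14, beside 0.35 for all measured genes. With the median of genes of at least 5 FPKM set to 0, which moved all genes by 0.18, the counts were 3 lower and 0 higher. The shares of all genes past 2-fold on these scales are not given here, so these counts are no result about the members.

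**Figure D1:**
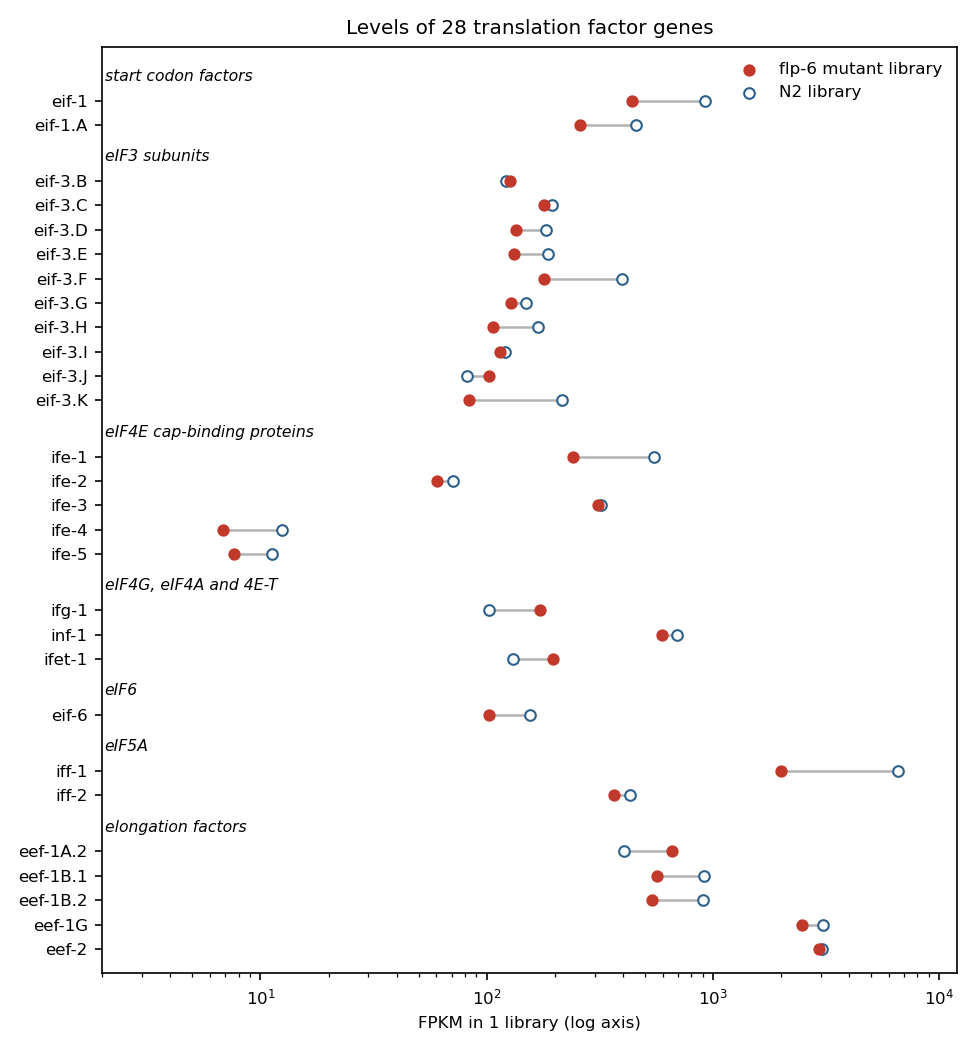
FPKM of the 28 measured members in the flp-6 mutant library (filled red) and in the N2 library (open blue), on a log axis, 1 value per library, grouped by role. The widest gap is that of iff-1, at 2010 FPKM in the mutant and 6607 FPKM in N2, while ifg-1, ifet-1, eif-3.J, eif-3.B and eef-1A.2 stand higher in the mutant library.

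The start codon factors were both listed at a lower FPKM in the mutant library. The gene eif-1 encodes eIF1, which holds the scanning ribosome back from wrong start codons, and had 439.3 FPKM in the mutant library and 924.8 FPKM in N2. The mutant value was 47.5% of the N2 value, a log2 difference of -1.07. The gene lies on the reverse strand of chromosome II from 4990831 to 4993580 in WBcel235, and its longest transcript has 582 nt in 5 exons. Its span holds another protein-coding gene of the same strand, T27F7.4, which had 24.4 FPKM in the mutant library and 29.9 FPKM in N2. The partner factor eIF1A, which opens the mRNA channel together with eIF1, is encoded by eif-1.A. It had 258.9 FPKM in the mutant library and 459.5 FPKM in N2, a log2 difference of -0.83, the closest to the 2-fold limit of the members that did not reach it.

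Of the subunits of eIF3, the scaffold that holds the small subunit, the other factors and the mRNA together, 10 fall under the name rule. These 10, which are not the whole complex, were listed at more even levels in the mutant library than in N2. The gene eif-3.L is given further below. The 10 genes named eif-3 ranged between 83.8 and 179.9 FPKM in the mutant library, with a median of 127.1 FPKM, and between 82.3 and 397.2 FPKM in N2, with a median of 175.2 FPKM. The highest subunit was 2.15 times the lowest in the mutant library and 4.83 times in N2. Without eif-3.F and eif-3.K these ratios were 1.76 in the mutant library and 2.37 in N2, so that much of the wider range in N2 came from this pair of genes.

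Those 2 were the eIF3 genes past 2-fold. The gene eif-3.F encodes a subunit with an MPN domain and had 179.9 FPKM in the mutant library and 397.2 FPKM in N2, a log2 difference of -1.14. It lies on the forward strand of chromosome II from 9331643 to 9333970, with 4 exons in a transcript of 1258 nt and no overlapping gene. The gene eif-3.K encodes a small PCI-domain subunit at the edge of the complex. Its level was 83.8 FPKM in the mutant library and 216.3 FPKM in N2, a log2 difference of -1.36. Its position is chromosome V, forward strand, from 12954002 to 12955229. It has 5 exons in a transcript of 841 nt, and shares 20 nt with mpst-7 on the opposite strand. That neighbour had 3.24 FPKM in the mutant library and 5.12 FPKM in N2, far less than eif-3.K.

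The other 8 eIF3 genes lay within 2-fold. Their differences are given as deposited and against genes of like length, that is, after subtracting the median difference of genes of similar transcript length. The structural core subunit gene eif-3.C had 179.4 FPKM in the mutant library and 195.0 FPKM in N2, and eif-3.B had 126.3 FPKM in the mutant library and 121.9 FPKM in N2. Their differences were -0.12 and 0.05 as deposited, and -0.45 and -0.22 against genes of like length. Subunits B, G and I form a module that is also present in yeast. In it eif-3.G had 127.8 FPKM in the mutant library and 149.8 FPKM in N2, and eif-3.I had 114.2 FPKM in the mutant library and 121.1 FPKM in N2. As deposited, these 4 genes lay between -0.23 and 0.05 on the log2 scale. Against genes of like length eif-3.G and eif-3.I lay at 0.07 and 0.10.

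The genes eif-3.D, eif-3.E and eif-3.H encode subunits found in animals but not in budding yeast. The gene eif-3.H, the other MPN-domain subunit, had 106.2 FPKM in the mutant library and 168.0 FPKM in N2, a log2 difference of -0.66. The gene eif-3.E, another PCI-domain subunit, had 131.8 FPKM in the mutant library and 185.8 FPKM in N2, a log2 difference of -0.49. The gene eif-3.D, whose human counterpart can bind the cap of some mRNAs, had 134.5 FPKM in the mutant library and 182.3 FPKM in N2, a log2 difference of -0.44. Against genes of like length eif-3.H, eif-3.E and eif-3.D lay at -0.44, -0.39 and -0.38, beside -0.45 for the core gene eif-3.C. The gap that set these 3 apart from eif-3.C as deposited was thus not seen among genes of like length. The genes eif-3.B, eif-3.G and eif-3.I, at -0.22, 0.07 and 0.10, still lay above these 3. The gene eif-3.J, for the loosely attached subunit, had 102.0 FPKM in the mutant library and 82.3 FPKM in N2, a log2 difference of 0.31, or 0.76 against genes of like length.

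Among the 5 cap-binding eIF4E genes, ife-1 stood below ife-3 in the mutant library and above it in N2. The protein IFE-1 is found in P granules of the germ line and is needed for normal sperm, and ife-1 had 241.2 FPKM in the mutant library and 548.7 FPKM in N2, a log2 difference of -1.18. The gene ife-3, an essential family member, had 311.3 FPKM in the mutant library and 320.6 FPKM in N2, nearly the same level. Of the summed FPKM of the 5 genes, ife-1 thus held 38.4% in the mutant library and 56.9% in N2, while ife-3 held 49.6% in the mutant library and 33.2% in N2. The order of the pair within a library does not depend on the scale between libraries.

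The ife-1 gene lies on the forward strand of chromosome III from 13343417 to 13344618, with 3 exons in its longest transcript of 995 nt. It shares 296 nt with dro-1 on the same strand, and dro-1 had 149.9 FPKM in the mutant library and 318.9 FPKM in N2, a log2 difference of -1.08. Reads from the shared stretch cannot be assigned to one of the genes from position alone, and the part of this overlap in the difference of ife-1 was not tested. In all, 10 of the 29 members overlap another protein-coding gene in the annotation, 8 of them by at most 77 nt.

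The 3 remaining eIF4E genes were rarer and lay within 2-fold. The gene ife-2, a mainly somatic form, had 60.4 FPKM in the mutant library and 71.3 FPKM in N2. The gene ife-5, a close relative of ife-1, had 7.64 FPKM in the mutant library and 11.3 FPKM in N2. The gene ife-4, which resembles the mammalian 4EHP protein, had 6.82 FPKM in the mutant library and 12.5 FPKM in N2. These last 2 were the least abundant measured members, together holding a few percent of the eIF4E sum in either library.

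The genes for the partners of eIF4E lay within 2-fold. The scaffold eIF4G is encoded by ifg-1, a gene of 9 exons in its longest transcript of 4664 nt, on the forward strand of chromosome II from 8217222 to 8222396. It had 172.5 FPKM in the mutant library and 102.5 FPKM in N2, which made the mutant value 168.4% of the N2 value and the log2 difference 0.75, the highest of all members. The gene ifet-1 encodes a relative of 4E-T, which binds eIF4E in place of eIF4G and represses mRNAs in germ granules. It had 196.3 FPKM in the mutant library and 130.9 FPKM in N2, a log2 difference of 0.58. The helicase eIF4A is encoded by inf-1, at 598.6 FPKM in the mutant library and 693.4 FPKM in N2, a log2 difference of -0.21.

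**Figure D2:**
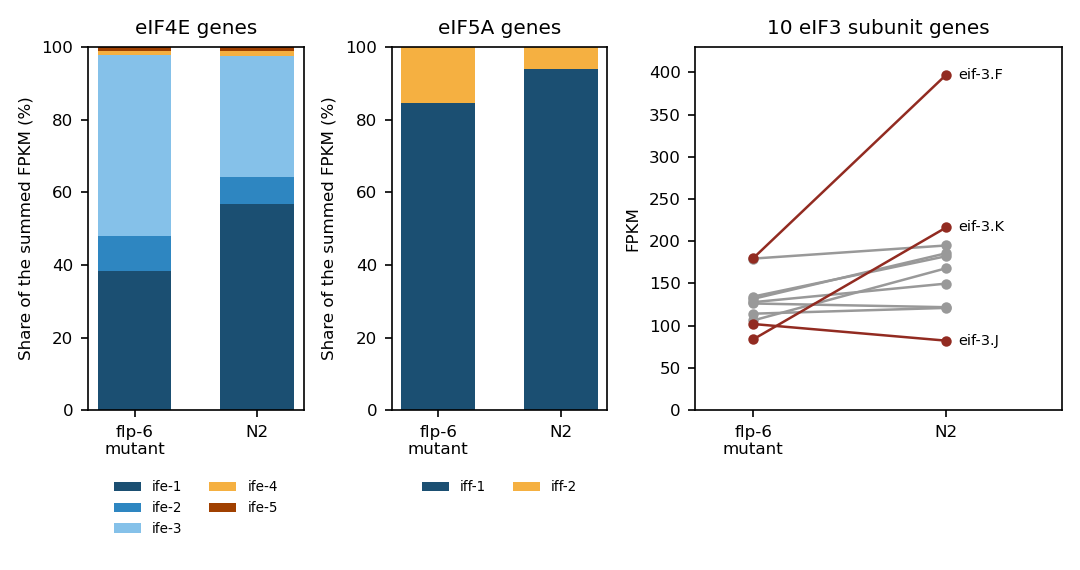
Stacked bars give the share of the summed FPKM held by each eIF4E gene (left) and each eIF5A gene (middle) in the flp-6 mutant library and in the N2 library, and lines (right) join the FPKM of each of the 10 eIF3 genes in the 2 libraries. The ife-1 share was 38.4% in the mutant and 56.9% in N2, the iff-1 share was 84.6% in the mutant and 93.9% in N2, and eif-3.F stands apart from the other subunits in the N2 library.

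The eIF5A genes held the largest difference of all members. The germ line copy iff-1, which worms need for germ cells to multiply, had 2010 FPKM in the mutant library and 6607 FPKM in N2. The mutant value was 30.4% of the N2 value, a log2 difference of -1.72, and the gene ranked 74th of all genes in the mutant library and 23rd in N2. The somatic copy iff-2 had 365.4 FPKM in the mutant library and 430.6 FPKM in N2, a log2 difference of -0.24. Of the summed eIF5A level, iff-1 held 84.6% in the mutant library and 93.9% in N2, and this share is free of the scale between libraries.

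The iff-1 gene lies on the reverse strand of chromosome III from 9745862 to 9747193, with 5 exons in its longest transcript of 674 nt. It was the one member at least 2-fold lower under each of the 10 alternatives tried, with values between -1.72 and -1.16. Its value could not change under those that only filter genes. The authors' deposited table gives it p = 0.00885 and q = 0.951, from their comparison of these 2 libraries. Of the 29 members, 2 were in the authors' deposited list of 715 genes. They were iff-1 and eif-3.K, and for eif-3.K the authors' deposited table gives p = 0.04185 and the same q. The list held 1.55% of all 46233 genes. Of these genes 13436 had a mean of at least 1 FPKM, as did 28 of the 29 members. The 1.55% is thus no like background for the members, and the list's share of measured genes is not given here.

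Since iff-1, ife-1 and ifet-1 act in the germ line, markers of germ cells are given beside them. Of 14 general germ line genes, 0 were 2-fold higher and 1 was more than 2-fold lower, htp-1, and their FPKM summed to 1360 in the mutant library and 1375 in N2. Of 12 oocyte and early embryo genes, 3 were higher and 1 lower, with sums of 3548 FPKM in the mutant library and 2869 FPKM in N2. The lower one, the yolk receptor gene rme-2, was listed at 0.0001 in the mutant library, an entry that is not a measured absence, and without it none of the other 11 was more than 2-fold lower. Of 22 measured sperm genes, 15 were higher and 0 lower, with sums of 1473 FPKM in the mutant library and 631.3 FPKM in N2. Many of these are msp genes of 1 family, each with a transcript of 384 nt. How reads with several matches were treated is not stated, so they are not separate observations. The 6 vitellogenin genes, which mark adult hermaphrodites, summed to 8890 FPKM in the mutant library and 14875 FPKM in N2, and 3 of them were more than 2-fold lower. Outside the germ line, 0 of 10 neuron genes passed 2-fold, 3 of 7 body wall muscle genes were more than 2-fold higher, and 1 of 6 measured intestine genes, asp-1, was listed at 0.0001 in the mutant library, which again is no measured absence. Against genes of like length these counts changed. Higher by 2-fold were then 2 of 11 oocyte genes, 20 of 22 sperm genes and 0 of 7 muscle genes. Lower by 2-fold were 0 of 14 general germ line genes, 6 of 6 vitellogenin genes and 1 of 10 neuron genes. The part of these tissues in the differences of iff-1 and ife-1, which were lower in the mutant library, and of ifet-1, which was higher, was not tested. A different number of germ cells and a different amount of RNA of a gene per cell cannot be told apart in whole larvae.

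The gene eif-6 encodes the factor that keeps the large subunit from joining too early and that helps to build it. It had 102.0 FPKM in the mutant library and 155.9 FPKM in N2, a log2 difference of -0.61. It overlaps gale-1 on the same strand by 34 nt, and gale-1 had 38.6 FPKM in the mutant library and 58.7 FPKM in N2.

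The elongation factors were among the most abundant members, and none of the 5 measured passed 2-fold. The translocase gene eef-2 had 2960 FPKM in the mutant library and 3052 FPKM in N2, and ranked 39th in the mutant library and 80th in N2. The gene eef-1G encodes the gamma subunit of the exchange factor and had 2474 FPKM in the mutant library and 3069 FPKM in N2. The ratio of eef-1G to eef-2 was 0.836 in the mutant library and 1.01 in N2. Their longest transcripts have 1435 and 2800 nt. Their log2 differences were -0.31 and -0.04 as deposited, and -0.19 and -0.30 against genes of like length.

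The exchange subunits eef-1B.1 and eef-1B.2, which put GTP back on eEF1A, were alike in both libraries. The gene eef-1B.1 had 563.4 FPKM in the mutant library and 910.6 FPKM in N2, a log2 difference of -0.69. The gene eef-1B.2 had 536.3 FPKM in the mutant library and 899.8 FPKM in N2, a log2 difference of -0.75. Their ratio was 1.05 in the mutant library and 1.01 in N2. Their transcripts differ in length, at 840 and 1410 nt. Against genes of like length eef-1B.1 lay at -0.18 and eef-1B.2 at -0.62.

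The eEF1A copies were listed in an uneven way. The gene eef-1A.2 on chromosome X had 659.2 FPKM in the mutant library and 403.3 FPKM in N2, a log2 difference of 0.71. The gene eef-1A.1, on the reverse strand of chromosome III from 6970026 to 6971712, was listed at 0.0001 in both libraries, and the authors' deposited table gives it p = 1. Both genes encode the same protein and are near-identical in their coding parts, so that their values are uncertain. Other genes that every cell uses were listed at 0.0001 in both libraries too, among them the ribosomal protein genes rpl-6 and rps-3, so the entry for eef-1A.1 is not a measured absence.

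Across the members, longer transcripts tended to be higher in the mutant library. Spearman's rho between length of the longest transcript and log2 difference was 0.655 over the 28 measured members, which share the same libraries, and 0.355 over 12999 genes above 0.0001 in both libraries. Up to 1000 nt, 9 of 10 members and 3225 of all 4596 genes lay below 0, with medians of -0.80 and -0.47. Over 1000 and up to 2000 nt, 12 of 13 members and 3283 of 5310 genes lay below 0, with medians of -0.31 and -0.17. Over 2000 nt, 2 of 5 members and 782 of 3093 genes lay below 0, with medians of 0.05 and 0.32. The members of this last class were eif-3.B, eif-3.C, eef-2, ifet-1 and ifg-1. In each class the members' median was lower than that of all genes of like length. From 50 FPKM upward the order was mixed. The medians were then -0.95 for 8 members and -0.85 for all genes in the shortest class. In the middle class they were -0.31 for 13 members and -0.40 for all genes. In the longest they were 0.05 for 5 members and 0.20 for all genes. Below 0 lay 7 of 8 members and 1254 of 1415 genes in the shortest class. In the middle class it was 12 of 13 and 1083 of 1417, and in the longest 2 of 5 and 211 of 633.

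The differences were therefore also set against genes of the same length, by subtracting the median of the length class, 40 classes of equal size over all genes. Of the 28 members 1, iff-1, was then past 2-fold on the low side, at -1.16, and 0 on the high side, beside 3.16% and 10.9% of all genes. Of genes averaging 50 FPKM or more, 4.5% were past it on the low side and 2.57% on the high side, so the members' counts lay near the shares of genes of like abundance. The members' median was -0.21, with 19 below 0 and 9 above. For the 26 members of at least 50 FPKM it was -0.21 too, beside -0.24 for all genes that abundant. After iff-1 the lowest were eif-3.F at -0.96, eif-3.K at -0.85 and ife-1 at -0.74. The highest were eif-3.J at 0.76 and eef-1A.2 at 0.75, while ifg-1 and ifet-1 stood at 0.19 and 0.25, close to genes of their length. For the elongation factor eef-2 the value was -0.30, against -0.04 as deposited. The part of transcript length in the members' differences was not tested.

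**Figure D3:**
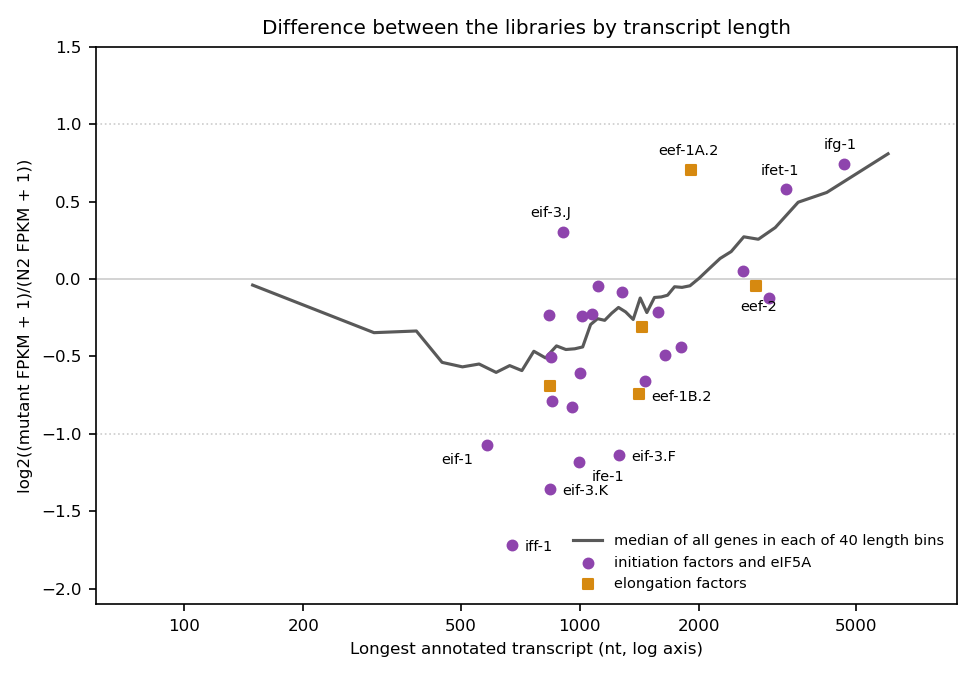
Log2 difference of each measured member (points) against the length of its longest annotated transcript (log axis), with the median difference of all genes in each of 40 length classes as a line and 2-fold as dotted lines. The long genes ifg-1 and ifet-1 lie close to the line at 0.75 and 0.58, and iff-1 at -1.72 is the farthest below it.

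The direction of a member was not always fixed. Over the alternatives that gave a member a value, 10 at most, 12 of 28 members stayed below 0 in each, 4 stayed above 0 in each and 12 had a sign that depended on the setting. The 4 were ifg-1, ifet-1, eef-1A.2 and eif-3.J. Filters of genes leave a member's value as it was, and a pseudocount cannot turn its sign. Only the scales and length centring could do so. Each of the 5 members that were at least 2-fold lower kept a value below 0 throughout. The highest value that each reached was -1.16 for iff-1, -0.85 for eif-3.K, -0.67 for ife-1, -0.62 for eif-3.F and -0.52 for eif-1. Of the elongation factors, eef-2 and eef-1G turned above 0 when each library was scaled to an equal sum, at 0.47 and 0.20. The sign of eef-2 also turned with the same upper quartile, at 0.01, and with the median of genes of at least 5 FPKM set to 0, at 0.14.

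**Figure D4:**
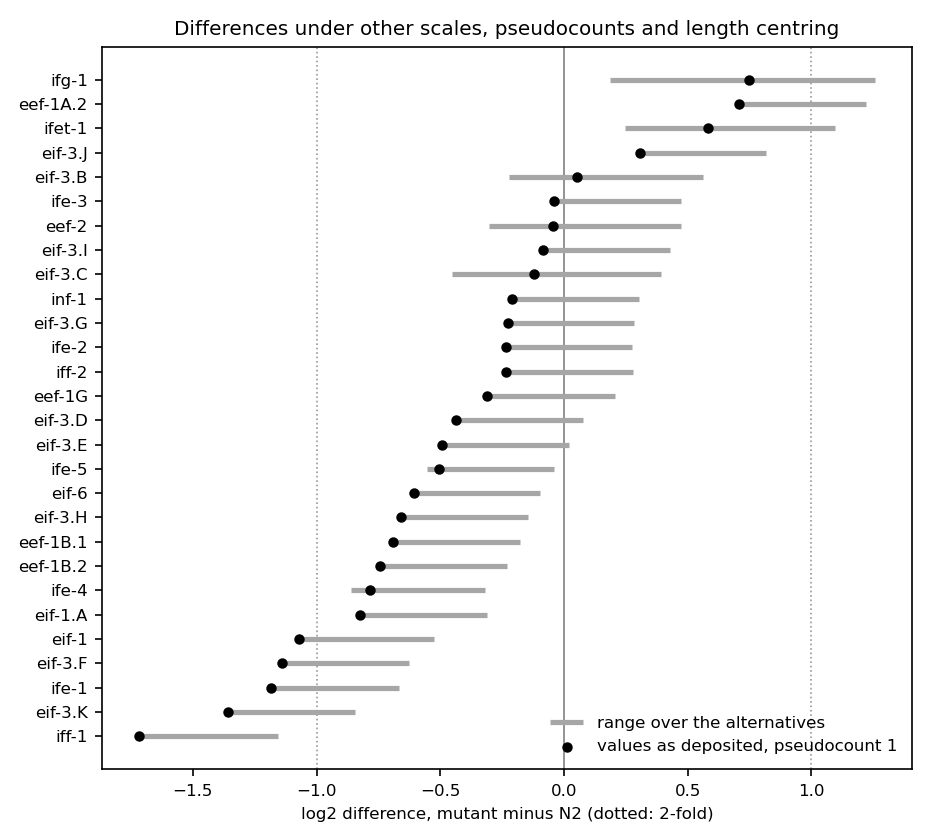
Log2 difference of each measured member with the values as deposited (black points) and its range over the alternative scales, filters, pseudocounts and length centring (grey bars), sorted from the highest to the lowest. The bar of iff-1, from -1.72 to -1.16, is the one that stays below the 2-fold line throughout, and 12 members have bars that cross 0.

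Further genes fall under the name rule only by their current symbols. In the current annotation 12 more genes carry such names by their identifiers, and all 12 were measured under older names, 0 of them 2-fold higher and 1 more than 2-fold lower. Their median was -0.36. The lower one was the gene for the beta subunit of eIF2, the carrier of initiator tRNA, listed as iftb-1 at 242.3 FPKM in the mutant library and 506.3 FPKM in N2. The alpha and gamma subunits of eIF2 were close to even, the first (Y37E3.10) at 217.5 FPKM in the mutant library and 241.2 FPKM in N2. The gamma subunit (Y39G10AR.8) had 159.8 FPKM in the mutant library and 196.1 FPKM in N2.

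The exchange factor eIF2B, which reloads eIF2 with GTP, was divided. Its alpha subunit (ZK1098.4) had 37.4 FPKM in the mutant library and 71.5 FPKM in N2, and its beta subunit (Y47H9C.7) had 60.3 FPKM in the mutant library and 107.3 FPKM in N2. The gamma subunit (ppp-1) was lower in the mutant library too, at 53.6 FPKM, beside 90.7 FPKM in N2. The delta subunit (F11A3.2) had 45.1 FPKM in the mutant library and 41.6 FPKM in N2. The catalytic epsilon subunit (D2085.3) had 27.7 FPKM in the mutant library and 24.5 FPKM in N2. A further eIF3 gene, eif-3.L (listed as C17G10.9), encodes the partner of the K subunit and had 145.4 FPKM in the mutant library and 241.5 FPKM in N2, a log2 difference of -0.73.

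Outside the name rule, 1 of 18 initiation factors and helpers was more than 2-fold lower and 0 were 2-fold higher, at a median of -0.14. The lower one was again iftb-1. This list shares 8 genes with the 12 above. Of 7 release, recycling and organellar factors, none passed 2-fold. The largest differences there were those of etf-1, the release factor eRF1, at 171.7 FPKM in the mutant library and 256.2 FPKM in N2, and of selb-1, the selenocysteine elongation factor, at 7.38 FPKM in the mutant library and 5.52 FPKM in N2.

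Of 14 measured regulators of initiation, 1 was more than 2-fold higher and 2 more than 2-fold lower. Their median was 0.21 as deposited and -0.04 when centred by length. The higher one was let-363, the TOR kinase, at 23.8 FPKM in the mutant library and 9.95 FPKM in N2. Its small GTPase activators were lower, rheb-1 at 74.9 FPKM in the mutant library and 157.8 FPKM in N2, and ragc-1 at 201.9 FPKM in the mutant library and 415.8 FPKM in N2. After centring by length these 3 differences were 0.37, -0.85 and -0.78. The kinases that phosphorylate eIF2 lay within 2-fold, pek-1 at 13.5 FPKM in the mutant library and 10.02 FPKM in N2, and gcn-2 at 7.78 FPKM in the mutant library and 4.94 FPKM in N2.

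Compared with the cytosolic ribosomal protein genes, which build the machine they serve, the translation factor genes stood closer to even as deposited. Their median difference was -0.37, beside -0.74 for the 74 measured ribosomal protein genes, of which 26 were more than 2-fold lower and 1 more than 2-fold higher. The members have longer transcripts, with a median of 1258 nt, beside 538 nt for the ribosomal protein genes. After centring by length the medians were -0.21 for the translation factors and -0.26 for the ribosomal protein genes. None of the 73 ribosomal protein genes with a centred value was then more than 2-fold lower and 1 was more than 2-fold higher, beside 1 and 0 of the 28 members. The difference between these lists was not tested.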

How the data were processed

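Whole-animal RNA was read as 1 library per genotype, and the authors deposited 1 FPKM value per gene and library, normalized by them for transcript length and library size, per the file headers. The submitters' processing notes name TopHat, Cufflinks and the build WBcel235, with no version, role or setting. Whether counting used strand, and how reads with several matches were treated, is not stated there. The authors' deposited p-value and q-value compare these 2 libraries, and 0.0001 stands in place of 0. For single-transcript coding genes, FPKM times length lay within 0.1 of a whole step for 28.6% (mutant) and 30.8% (N2) of low values at the best step, against 20% by chance, so no reads were recovered.

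The differences used a pseudocount of 1, which understates the change of low genes, a minimum mean of 1 FPKM and a 2-fold limit. Spans, exons and the longest transcript came from the Ensembl annotation of WBcel235, release 115. The table's gene identifiers and the current symbols gave the same name for 29 of 29 members. Members, lists and length centring were chosen with earlier results of these data known. The members named were all 29, and of each list of other factors and regulators those past 2-fold or, where none was, the largest pair. Ribosomal protein genes past 2-fold, which the same rule would name, and tissue markers are given by counts, and htp-1, rme-2 and asp-1 were named after their values were seen. The subunits of eIF2 and eIF2B, eif-3.L, pek-1, gcn-2, rpl-6, rpl-35, rps-3 and genes overlapping a member were named after their values were seen. Ribosomal protein genes were those named rpl or rps, since the pattern first written also took in other genes. The alternatives were pseudocounts of 0.1 and 5, no minimum, minimums of 5 and 50 FPKM, 3 scales, length centring, genes at 0.0001 left out, a 1.5-fold limit and the 12 later-named genes added. The minimum of 50 FPKM and the 12 genes were added after seeing the data. Python 3.11.15, numpy 2.4.6, pandas 2.3.3 and matplotlib 3.10.9 were used.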

Additional observations from a re-analysis of the deposited data

How the results depend on the processing

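The 5 members at least 2-fold lower became 1 with each library scaled to an equal sum of FPKM, 1 after length centring, 3 with the median difference set to 0 and 11 at a 1.5-fold limit. The 0 members at least 2-fold higher became 3 with the same sum and 2 at the 1.5-fold limit. The shares of all genes past 2-fold on the other scales are not given here, so the counts on those scales are no result about the members. Both counts were within 1.5 times their value under the other 8 alternatives, among them filters that leave each member's value as it was. The median of the members, -0.37, was -0.34 with a pseudocount of 5, -0.31 without a minimum, -0.32 with the same upper quartile, -0.19 with the median setting, -0.21 after length centring, -0.37 with the 12 later-named genes and -0.27 at a minimum of 50 FPKM. It turned to 0.14 with the same sum, a scale that moves all genes upward by its construction. No 2-fold lower member changed sign.

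No paired analysis was possible because each genotype has 1 library. The error between animals or cultures, the depth and the read sharing between eef-1A.1 and eef-1A.2 cannot be had from these values. No sequence is printed, since no sequence file was used here.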
